A study of Drosophila melanogaster with 4 samples.

Results

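The genes described here encode the structural cuticle proteins of Drosophila melanogaster. They were chosen by symbol from the table of the comparison between lamin-B overexpression and control heads, as genes with reads whose names begin with Cpr, Lcp, Ccp84, Twdl or Edg, or are Acp1 or Pcp. Of 125 genes with such names, 26 had no reads, Cpr72Ec and Cpr66D were left out by name and 0 lay on chromosome 4. The remaining 97 were a small part of the 15282 genes with reads among 17753 in the table. They comprised 55 Cpr, 19 Tweedle, 14 Lcp, 4 Ccp84 and 3 Edg genes, with Acp1 and Pcp as single genes.

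RNA came from pooled heads of adult flies at day 30, as poly-A selected libraries. The 2 overexpression samples had the genotype Hsp70-Gal4/+; +/UAS-LamB.GFP, in which a heat shock promoter supplies Gal4 and Gal4 drives lamin B with a GFP tag. Both control sibling samples were +/+; +/UAS-LamB.GFP, so both groups carried the transgene and only the first carried the driver. There was no group with the driver alone. What the driver, its linked variants and the overexpressed protein each contribute cannot be told apart. In RNA from whole heads, fewer cells of a type and less RNA per cell cannot be told apart either.

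Insect cuticle is a chitin scaffold filled with secreted proteins and then tanned by oxidised catecholamines. Most Cpr, Lcp, Ccp84 and Edg proteins carry the Rebers-Riddiford consensus, a chitin-binding motif, while Tweedle proteins form a separate family with its own conserved region. Epidermal cells transcribe most of these genes in short bursts around each moult, under ecdysone and the factors it induces. Many of them lie in tandem clusters of related copies.

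The table of the comparison held no values per library, but whole reads in each library could be recovered for 97 of 97 genes (the method is described with the processing). Values per library are given in 1 order throughout: the overexpression libraries with size factors 1.15 and 1.10, then the control libraries with size factors 1.09 and 0.73. A normalized read is a read divided by its library's size factor. The size factors put about 38.4 M, 37.0 M, 36.5 M and 24.5 M reads (M, 1000000) in the libraries, if these were alike in composition. Photoreceptor transcripts such as ninaE, the main rhodopsin, and the neuronal gene elav were present. In overexpression heads 5 of 10 photoreceptor markers were called lower, as was elav, the only one called of 5 head neuron markers, all of which had a negative deposited fold change. Of 6 tested fat body markers Lsp2 was called lower and apolpp higher. Male reproductive tract markers summed to 1464, 4529, 14.7 and 75.4 normalized reads over 18 genes with recovered reads, and 12 of 20 tested were called higher. Gut markers summed to 2028, 5162, 435 and 344 over 19 genes, with 12 of 21 called higher and 1 lower. Acp95EF, Jon65Aii, Jon66Cii and deltaTry among them had no reads. Both overexpression libraries had higher sums than the controls, most of all the library with size factor 1.10. The sums leave out EbpIII, Amy-d and Amy-p, with means of 73769, 13222 and 11240 and deposited log2 fold changes of 0.05, -0.004 and -0.19. EbpIII and Amy-d were not called, and Amy-p was the gut marker called lower. The sums also leave out Ebp, EbpII, Jon65Aiii, Mal-A7 and betaTry, which were called higher, and alphaTry, which was not called. The part of gut and male tract transcripts in the results below was not tested.

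Of the 97 cuticle protein genes, Cpr65Au, Cpr62Bb and Cpr49Ag were lower and Cpr100A was higher in the overexpression heads by the authors' deposited Wald test, at an adjusted p under 0.05. Cpr100A was 3.02-fold higher in normalized reads, Cpr49Ag was at 0.325 of the control level, Cpr62Bb at 0.502 and Cpr65Au at 0.822. An adjusted p was given for 36 of the 97 genes, so 1 higher and 3 lower calls made up 11.1% of those tested. Among all 11757 tested genes, 8.74% were called, 5.66% higher and 3.07% lower. The share of cuticle protein genes called was thus near that of the whole table.

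Among the 36 tested cuticle protein genes, 20 (55.6%) had a negative deposited log2 fold change, against 47.9% of all tested genes. Their median deposited log2 fold change was -0.03, beside 0.01 for all tested genes. For the 17 whose mean normalized count reached 50 the median was -0.13, beside -0.01 for all such genes. The median standard error of a tested cuticle protein gene was 0.12. In 33 tested cuticle protein genes with a mean up to 1000, both overexpression libraries lay below both controls in 9 (27.3%), above them in 7 (21.2%) and overlapped them in 17. Over all 6929 such genes with recovered reads, 17% lay below and 35.7% above.

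**Figure D1:**
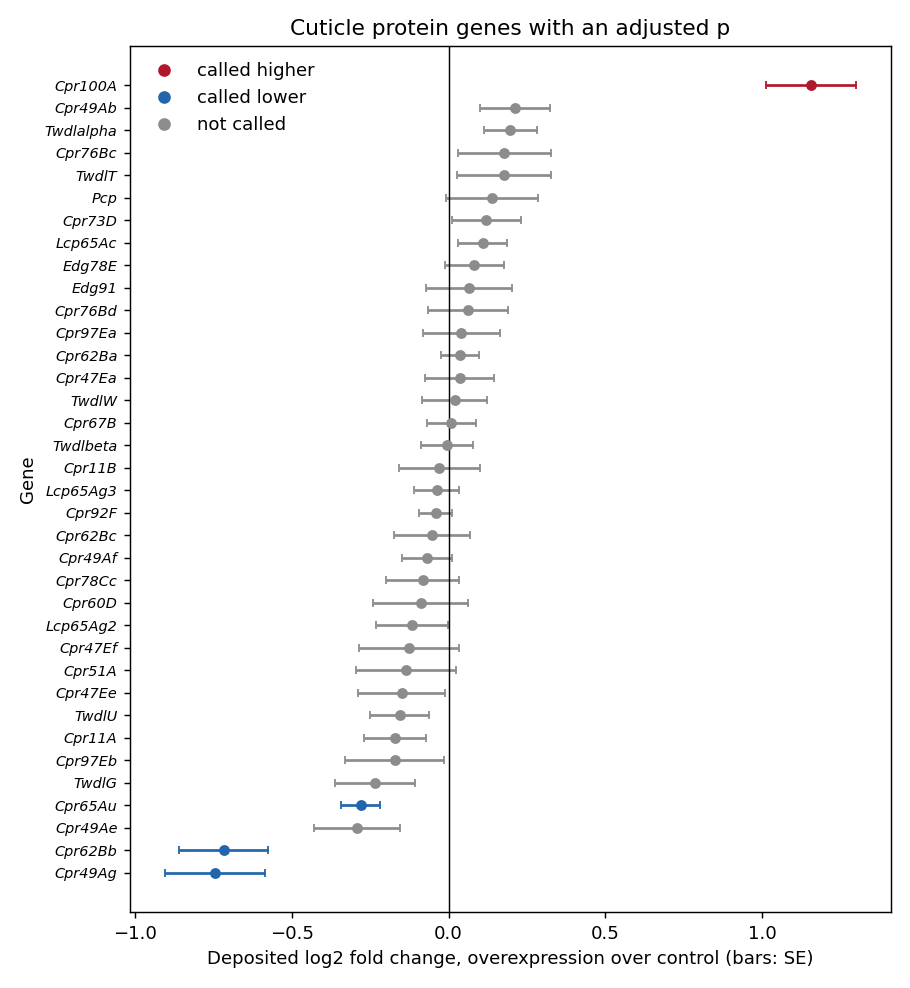
Deposited log2 fold change (horizontal axis, overexpression over control, shrunken towards 0 by the authors' fit) of each of the 36 tested cuticle protein genes (vertical axis), with bars of 1 standard error. Cpr100A stands alone at 1.16, Cpr49Ag, Cpr62Bb and Cpr65Au are the 3 genes called lower, and the 32 others lie between -0.29 and 0.21.

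Transcripts of the family were dominated by a few genes. The 97 genes summed to 19480, 19170, 21115 and 21688 normalized reads in the 4 libraries, 0.0607% of all normalized counts. Cpr65Au supplied 46.3% of this sum, the top 3 genes 70.4% and the top 10 genes 88.9%. At the other end, 65 genes had a mean normalized count under 10 and 12 had 1 read in all 4 libraries together. The summed level was lower in both overexpression libraries, at a ratio of 0.903, and without Cpr65Au the sums were 10838, 10859, 11054 and 10989, a ratio of 0.984.

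Per kilobase of annotated exon, the order of mean normalized counts was Cpr65Au with 17926, Cpr67B with 3663, Cpr11B with 842, Cpr60D with 527 and Cpr49Ae with 452. Cpr65Au exceeded the next gene 4.89-fold on this scale. Cpr62Bb followed with 429, Cpr73D with 401, Cpr51A with 381, TwdlG with 353 and Cpr47Ee with 344. Cpr100A came next with 316. The levels from Cpr49Ae to Cpr100A were close together, and Cpr62Bb was above Cpr100A in the controls and below it in the overexpression heads.

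Cpr65Au, a Rebers-Riddiford family gene on arm 3L, had 8643, 8312, 10061 and 10700 normalized reads. Both overexpression libraries lay below both controls, at 0.822 of the control level (95% interval of counting error 0.806 to 0.839). In the authors' deposited table its log2 fold change was -0.28 (SE 0.06) with an adjusted p of 3.03e-04, from 2 against 2 samples. Its gene spans 3L:6131242-6132109 on the minus strand of BDGP6. An antisense RNA, asRNA:CR46005, overlaps it from the opposite strand with a mean normalized count of 18.4, beside 9429 for Cpr65Au. This was the smallest of the 4 changes in ratio and the largest in normalized reads.

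Cpr62Bb, also of the Rebers-Riddiford family, had 269, 301, 572 and 559 normalized reads. The overexpression libraries lay at 0.502 of the controls (interval 0.454 to 0.554), with no overlap. Its log2 fold change in the authors' deposited table was -0.72 (SE 0.14, adjusted p 2.97e-05). The gene lies at 3L:1832636-1835164 on the minus strand.

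Cpr49Ag had 64.6, 62.5, 196 and 195 normalized reads, so the libraries of a group differed by less than 1.04-fold and the groups stood far apart. The ratio was 0.325 (interval 0.266 to 0.395). In the authors' deposited table the log2 fold change was -0.75 (SE 0.16, adjusted p 1.45e-04), against a log2 ratio of reads of -1.62. The authors' fit shrinks changes towards 0, and Cpr62Bb went from -0.99 to -0.72 and Cpr100A from 1.60 to 1.16. Cpr49Ag lies at 2R:12407793-12408523 on the plus strand. The next gene along the arm, CG30050, was lower too in the authors' deposited table, at -0.59 (SE 0.14, adjusted p 9.05e-04).

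Cpr100A, a Rebers-Riddiford gene near the end of arm 3R and outside any cluster, had 676, 634, 223 and 207 normalized reads. Both overexpression libraries lay above both controls, at a ratio of 3.02 (interval 2.70 to 3.39). Its log2 fold change was 1.16 (SE 0.14) with an adjusted p of 1.05e-13 in the authors' deposited table. The gene lies at 3R:30867521-30869184 on the plus strand. Among its neighbours, CG15546, the second gene beyond it, was higher in the authors' deposited table at 0.52 (SE 0.13, adjusted p 0.00311), while CG15545 between them was not called at 0.24 (SE 0.14, adjusted p 0.358).

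**Figure D2:**
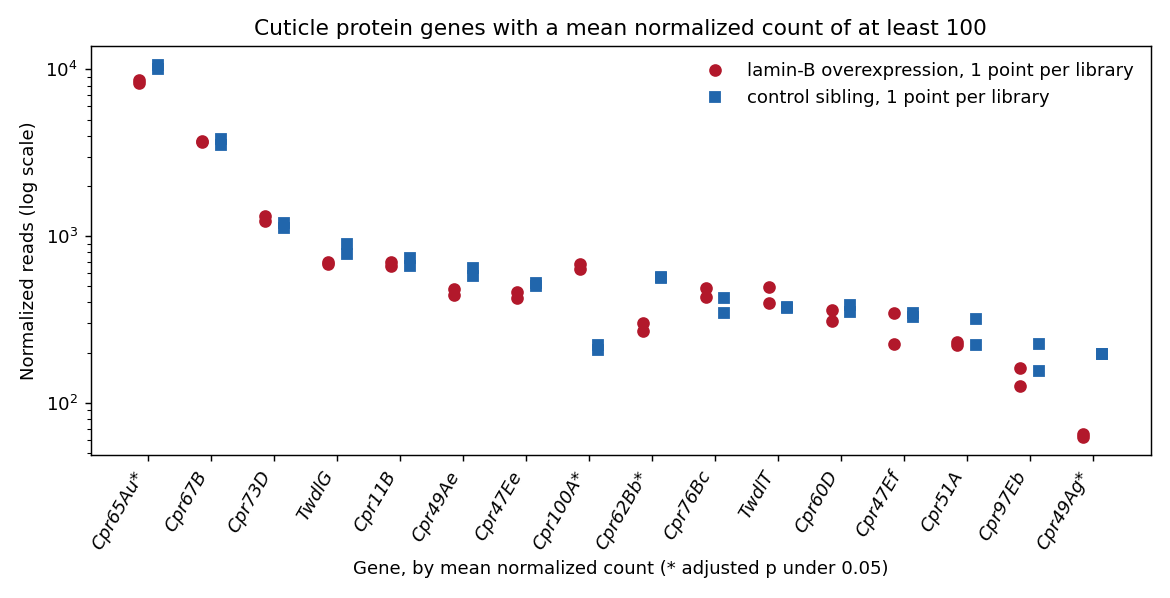
Normalized reads (vertical axis, log scale) of the 16 cuticle protein genes whose mean normalized count reached 100, ordered by that mean, with 1 point per library and an asterisk for genes called at an adjusted p under 0.05. The groups separate widely for Cpr100A, Cpr62Bb and Cpr49Ag, by a narrow margin for Cpr65Au, and lie close together for Cpr67B and Cpr11B.

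None of the other 12 abundant genes was called. Cpr67B, next after Cpr65Au by level, had 3682, 3745, 3842 and 3530 normalized reads, a ratio of 0.999 (interval 0.967 to 1.03). Cpr11B had 701, 660, 734 and 661, and its groups overlapped. Of the 16 genes with a mean of at least 100, 11 had a negative and 5 a positive deposited fold change. Both overexpression libraries lay below both controls in 6 of the 16 and above them in 4. Over all tested genes with a mean up to 1000, 17% lay below and 35.7% above. No share was taken over all genes with a mean of at least 100, so these counts are a description.

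No cuticle protein gene lay close to the threshold of 0.05. Among the genes called, the highest adjusted p were 3.03e-04 for Cpr65Au, 1.45e-04 for Cpr49Ag and 2.97e-05 for Cpr62Bb in the authors' deposited table. Next, and not called, came Twdlalpha with an adjusted p of 0.129, Cpr49Ae with 0.194 and Cpr49Ab with 0.271 in the authors' deposited table. Cpr49Ae had 484, 446, 576 and 642 normalized reads. Its groups did not overlap, and its log2 fold change in the authors' deposited table was -0.29 (SE 0.14). Of all 97 genes, 6 had an unadjusted p under 0.05, the 4 called genes with Twdlalpha and Cpr49Ae.

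In the clusters, 66 of the 97 genes lay in 13 groups of 3 or more whose neighbouring starts were at most 50 kb apart, 6 lay in pairs and 25 alone. Of the 4 called genes, 3 lay in clusters, each in a different one, and in none of these was a second member called. In most clusters 1 gene held most of the reads.

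The cluster from Lcp65Ag3 to Cpr65Az on arm 3L was the largest, with 13 genes with reads and 5 family genes without. Cpr65Au alone made up 99.3% of its normalized counts, and the next gene, the larval cuticle gene Lcp65Ag2, had a mean of 37.4. The 12 others summed to 65.5, 49.8, 78.9 and 80.9 normalized reads. Lcp65Ag2, the most abundant Lcp gene, had 39.3, 15.4, 41.3 and 53.5, and its log2 fold change in the authors' deposited table was -0.12 (SE 0.12, adjusted p 0.702). Its copies Lcp65Ag1 and Lcp65Ag3 are nearly identical to it, so the split of reads among the 3 is uncertain. In the same cluster Lcp65Ac had 21, 14, 3 and 4 reads, a ratio of 4.04 (interval 1.77 to 10.8), and was not called in the authors' deposited table (adjusted p 0.517).

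The 7 genes from Cpr49Aa to Cpr49Ah on 2R summed to 605, 607, 821 and 881 normalized reads, a ratio of 0.712. Cpr49Ae supplied 73.7% of this. Cpr49Ae and the called Cpr49Ag were lower in both overexpression libraries. The 5 other genes together had 56.8, 98.7, 48.7 and 45.2, higher in both, but not each of them was. Most of this difference was in Cpr49Ab, with 28.8, 62.5, 14.7 and 15.1. Cpr49Aa, with 10, 7, 6 and 1 reads, was also higher in both. Cpr49Af had 3.49, 15.4, 12.9 and 27.4 normalized reads, a ratio of 0.499, and its groups overlapped, as did those of Cpr49Ac and Cpr49Ah. Cpr49Ab had 33, 69, 16 and 11 reads, higher in both overexpression libraries, at a ratio of 3.05 that dropped to 1.94 without the library with size factor 1.10. Cpr49Ab was not called in the authors' deposited table, at a log2 fold change of 0.21 (SE 0.11).

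Cpr62Bb made up 91.4% of its cluster on 3L, and the neighbours Cpr62Ba and Cpr62Bc together had 40.2, 38.9, 34.0 and 46.6 normalized reads, a ratio of 0.982. Their sums overlapped between the groups. In the 47E cluster on 2R, Cpr47Ee with 462, 425, 499 and 520 normalized reads and Cpr47Ef held most of the counts, and 0 of 3 tested genes were called by the authors' Wald test, with 0 at an unadjusted p under 0.05. Cpr76Bc, with 490, 434, 347 and 425, was 89.3% of its cluster on 3L, higher in both overexpression libraries, with an adjusted p of 0.618 in the authors' deposited table.

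**Figure D3:**
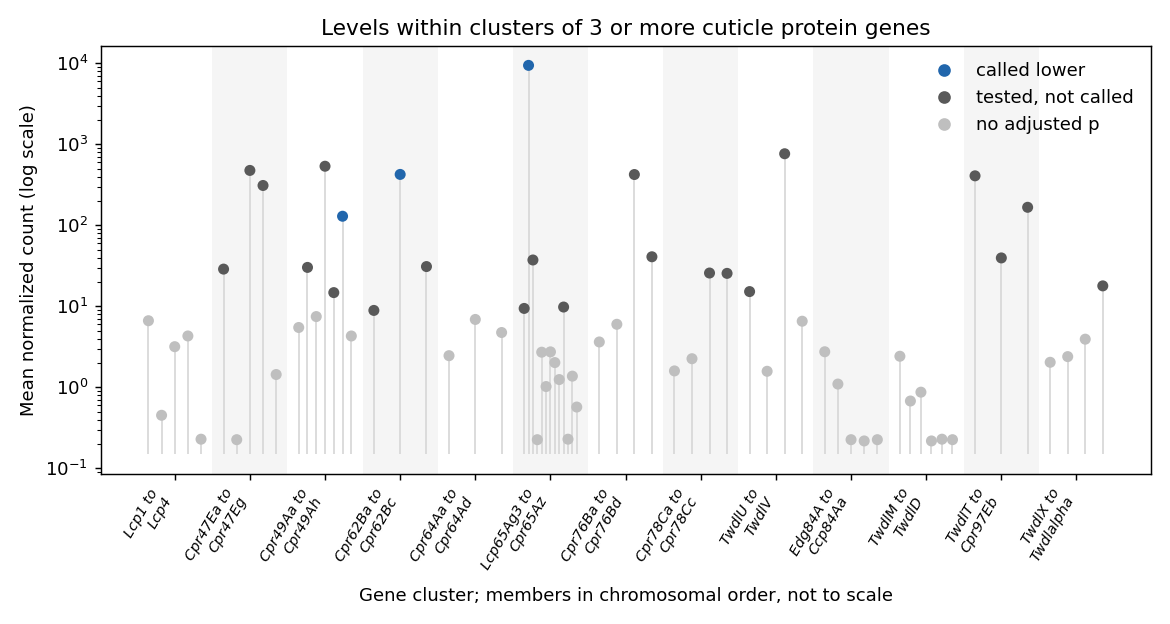
Mean normalized count over the 4 libraries (vertical axis, log scale) of the 66 genes in 13 clusters (horizontal axis), drawn in chromosomal order within each cluster and coloured by the authors' adjusted p. In the clusters with abundant transcripts 1 or 2 genes rise far above their neighbours, as Cpr65Au does, and the 3 genes called lower lie in 3 different clusters.

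Tweedle genes, named after a larval body shape mutant, had 6 of 19 genes tested and 0 called by the authors' Wald test, with 1, Twdlalpha, at an unadjusted p under 0.05. Their sums were 1267, 1195, 1352 and 1232 normalized reads, which overlapped between the groups. TwdlG supplied 60.6% of them, with 682, 694, 901 and 783 normalized reads and a log2 fold change of -0.24 in the authors' deposited table (SE 0.13, adjusted p 0.292). TwdlT, with 496, 395, 369 and 374, was higher in both overexpression libraries and was not called in the authors' deposited table either (adjusted p 0.626). The receptor gene RYa-R overlaps TwdlT on the same strand with a mean of 22.4.

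Among genes with 10 reads or more, Twdlalpha had the largest log2 ratio of normalized reads in either direction once 0.5 was added to each group mean. It had 27, 49, 4 and 0 reads, a ratio of 15.4 (interval 5.76 to 57.8) that was 9.20 without the control library with size factor 0.73. Without the other control library the controls had 0 reads and no ratio could be given. Its log2 fold change in the authors' deposited table was shrunken to 0.20 (SE 0.08). The gene lies on X inside goe, which is on the opposite strand and had a mean of 1986 with no call. On the same strand CG32568 overlaps Twdlalpha over 72 of its 1519 bases. CG32568 had a mean of 16.6, beside 17.9 for Twdlalpha, and a log2 fold change of 0.11 with no call in the authors' deposited table. TwdlU on 3R was lower in both overexpression libraries, with 10, 5, 28 and 16 reads, a ratio of 0.276 (interval 0.142 to 0.505) and an adjusted p of 0.364 in the authors' deposited table. The sum of the TwdlM to TwdlD cluster on 3R, which holds 6 genes with reads and 6 without, was 14, 4, 3 and 0 reads. Its top gene TwdlM had 9, 0, 2 and 0.

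Most genes named for the larval cuticle were scarce in these heads, with a mean normalized count under 10 in 13 of 14 Lcp genes. Lcp genes, larval cuticle proteins, summed to 75.1, 56.1, 91.8 and 86.4 normalized reads over 14 genes, with 3 tested and 0 called by the authors' Wald test, and 0 at an unadjusted p under 0.05. Lcp1, the top gene of the Lcp1 to Lcp4 cluster, had 9, 2, 8 and 7 reads. Its near copy Lcp2 makes the split between them uncertain.

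Pcp, a pupal cuticle protein gene that lies within an intron of Gart on the other strand, had 100, 67.0, 55.1 and 65.8 normalized reads. It was not called in the authors' deposited table (log2 fold change 0.14, SE 0.15), and the mean of Gart was 13283. The ecdysone-dependent genes Edg91 and Edg78E had 47.2, 54.3, 47.7 and 35.6 normalized reads and 25.3, 41.7, 29.4 and 6.85, with overlapping groups. Edg84A, of the same class, had 12 reads, all in the control library with size factor 1.09. Acp1, named as an adult cuticle protein, had 1, 0, 10 and 0 reads. The 4 Ccp84 genes together had 5, 3, 0 and 0 reads. With the controls set to 3 reads over the group the ratio was 2.16, which leaves out counting error in the overexpression reads. The top gene of the 4, Ccp84Ag, had 4, 1, 0 and 0 reads.

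**Figure D4:**
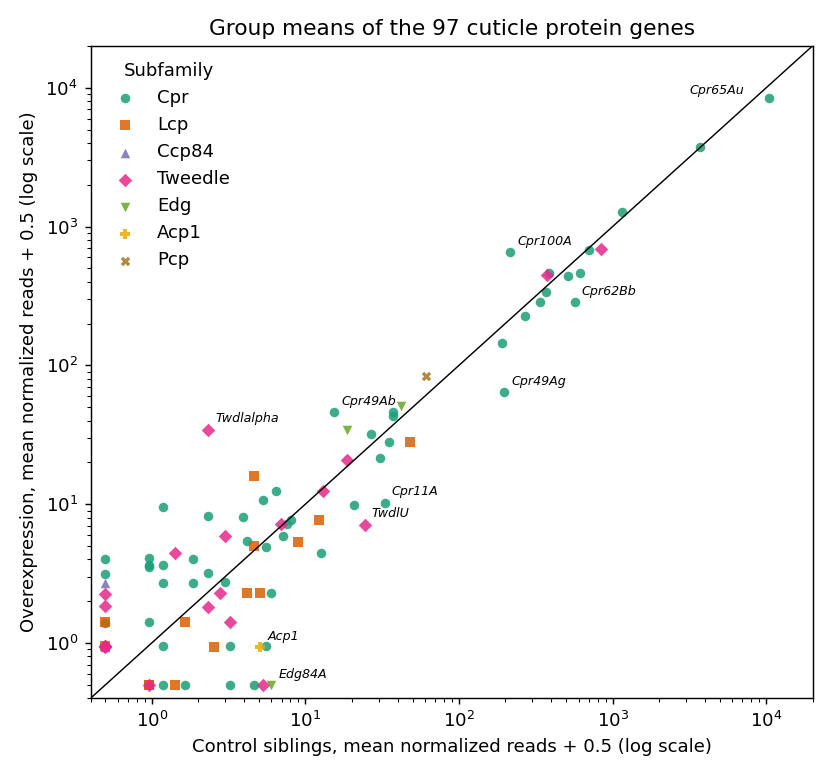
Mean normalized reads plus 0.5 in the overexpression heads (vertical axis, log scale) against the control heads (horizontal axis, log scale) for the 97 genes, by subfamily, with the line of equality. Points with many reads hug the line except for Cpr100A above it and Cpr62Bb and Cpr49Ag below it, while genes with few reads, such as Twdlalpha, Edg84A and Acp1, scatter widely.

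The 61 genes without an adjusted p had at most 33 reads each and 574 reads in all. Of these, 15 had reads in overexpression libraries only, 10 in control libraries only and 21 in 1 library only. The same shares over all genes without an adjusted p were not taken. The overexpression libraries were also deeper, with size factors of 1.15 and 1.10 against 1.09 and 0.73, so the 15 and 10 cannot be compared directly. Cpr64Ac, the top gene of the Cpr64Aa to Cpr64Ad cluster on 3L, had 6, 9, 8 and 5 reads, with overlapping groups. Cpr56F had 4, 16, 0 and 1 reads, and Cpr64Ad had 1, 16, 4 and 0. Most reads of both were in the library with size factor 1.10, where the gut and male tract sums were highest. Cpr64Ad lies wholly within CG43367 on the same strand, which had a mean of 4802 beside 4.76 for Cpr64Ad. Cpr64Ac lies within CG43367 on the other strand. Cpr56F overlaps CkIIbeta2, on the other strand, which had a mean of 7.27. How far reads of CG43367 and CkIIbeta2 enter these counts was not tested. Cpr65Av had 0, 1, 5 and 4 reads. At this depth such differences rest on a few reads. Cpr11A, tested and not called in the authors' deposited table (adjusted p 0.347), had 11, 11, 21 and 33 reads.

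Several of the genes share ground with abundant transcripts of the other strand. How the counting treated strand is not given in the sources used here, so reads of such pairs cannot be told apart. Cpr51A overlaps CG30197, which was called higher in the authors' deposited table at 0.30 (SE 0.05, adjusted p 4.21e-06), over 963 of its 2653 bases, and Cpr11B lies within hwt. Cpr73D overlaps Ogdh. None of the 4 called genes overlapped a protein-coding gene.

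Of the genes left out by name, Cpr72Ec, a component of the corneal lens, was lower at -2.40 (SE 0.06) in the authors' deposited table, and Cpr66D, another lens protein, had 60, 59, 68 and 34 reads and -0.01 (SE 0.14). Among the 4 corneal lens markers, Cpr72Ec and retinin were called lower. Crys, the lens crystallin, had 124, 127, 61 and 181 reads and was not called.

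Other cuticle genes, listed by role, numbered 110, of which 96 were tested. They were genes of chitin, tanning, apical matrix, waxes and regulation, and 12 other cuticle and cuticle-like proteins, Cpr72Ec and Cpr66D included. Of these, 16 were higher and 8 lower in the authors' deposited table, 25% in all, beside 8.74% of all tested genes. Their median deposited log2 fold change was -0.02, beside 0.01 for all tested genes. The lists were chosen with earlier results of these data known, so their counts are a description.

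For chitin synthesis and deposition, 4 of 15 tested genes were higher and 1 lower. The chitin deacetylase gene verm had 1084, 1058, 637 and 679 normalized reads and a log2 fold change of 0.59 in the authors' deposited table (SE 0.12, adjusted p 2.58e-05). Its partner serp, at 0.40, was called just under the threshold in the authors' deposited table (SE 0.14, adjusted p 0.0478). The obst-A gene, at 0.38, fell just outside it (SE 0.13, adjusted p 0.0502). The chitin-binding protein genes Gasp (0.30) and obst-E (0.36) rose and Cda5, another deacetylase gene, fell (-0.40) in the authors' deposited table. The chitin synthase kkv, which builds the epidermal polymer, had 14.0, 47.1, 45.9 and 20.6 normalized reads, with overlapping groups. Gasp, serp and verm, 3 of 5 markers of the trachea and its lining, were thus called higher, while the tracheal factors trh and btl were not called.

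Of 17 tested genes on the chitin breakdown list, which includes chitinase-like growth factors, 6 were higher and 0 lower. They were the chitinase genes Cht2 (0.50) and Cht12 (0.38), and the chitinase-like growth factor genes Idgf2, Idgf3, Idgf4 and Idgf6 with 0.16, 0.33, 0.21 and 0.14 in the authors' deposited table. Cht12 had 57, 180, 0 and 2 reads, with most in the library where the gut sum was highest. Cht2 had 499, 519, 339 and 237 normalized reads.

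In tanning and pigmentation, 1 of 21 tested genes was higher and 5 were lower. The tyrosine hydroxylase gene ple, the first step from tyrosine to catecholamines, had a log2 fold change of 1.04 in the authors' deposited table (SE 0.07, adjusted p 4.66e-42). The lower genes were yellow-d (-0.91), rk, which encodes the bursicon receptor (-0.90), the prophenoloxidase gene PPO1 (-0.53), Pu, which makes the pterin cofactor of ple (-0.21), and t, which releases dopamine from its conjugate (-0.16), all in the authors' deposited table. The rk gene had 262, 321, 695 and 694 normalized reads, so its groups did not overlap.

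Of the 15 cuticle gene regulators tested 0 were called by the authors' Wald test, with 4 at an unadjusted p under 0.05, and 12 had a negative deposited fold change and their median was -0.14. Of 10 tested genes on the apical matrix list 2 were higher, pio and f. The f gene is the forked gene of actin bundles and not a gene of the matrix itself, so the count describes the list. Wax and hydrocarbon genes had 3 of 7 higher, with FASN2, a fatty acid synthase gene, at 1.45 (SE 0.16, adjusted p 1.94e-17), the hydrocarbon enzyme gene Cyp4g1 at 0.49 and the desaturase gene Desat1 at 0.23 in the authors' deposited table. FASN2 had 975, 1738, 206 and 215 normalized reads. Of other cuticle-like proteins 2 of 11 were lower, and these were the lens genes retinin and Cpr72Ec.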

How the data were processed

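RNA was measured in 2 overexpression and 2 control samples. Per the submitters' processing notes, the build was BDGP6 and the tools were DESeq2 1.22.1, DESeq, HTSeq and STAR 2.5, without roles or order. The table used is the authors' own comparison. In it, the deposited signal is a gene's normalized count averaged over 4 libraries. Their deposited log2 fold change, shrunken towards 0, comes with a standard error, a Wald score and a deposited p-value with its adjusted p-value.

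The design assumed counts per library. The tables hold none, so the test is the authors' Wald test, called at an adjusted p under 0.05. Whole reads were recovered from the mean, printed to 10 significant digits, by solving for sets of reads and keeping the set for which the shrunken negative binomial model of the authors' tool, rebuilt here without running it, returns the deposited fold change and standard error. Of 10472 genes with means up to 1000, 10451 gave 1 accepted set, as did 97 of 97 cuticle protein genes. The largest misfit of those 97 was 5.1e-07 on the log2 scale. The search was tested on simulated data with means of at most 1000. That test did not cover Cpr65Au, Cpr67B and Cpr73D, whose means are higher, or the genes with the lowest means. A library's side came from the sign of genes with 1 read, and the direction from the order of the group names in the table. Recovered libraries carry no replicate number.

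Intervals are exact 95% binomial intervals and cover counting error only. A group at 0 was set to 3 reads, which leaves out counting error in the other group. The labels do not say whether replicates are separate cultures, so p-values may measure technical spread. An exact permutation test of 2 against 2 cannot go below 0.333 and was not used. Annotation and positions came from Ensembl 115. Named were called genes, the 10 most abundant, the top gene of each subfamily and cluster, the 10 largest ratios with 10 reads or more and 3 genes each side of the threshold. Other genes named were chosen after their values were seen. Members and lists were chosen with earlier results of these data known. For 7 listed symbols no match was found. Computations used Python, numpy, scipy and numba at versions 3.11.15, 2.4.6, 1.17.1 and 0.67.0.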

Additional observations from a re-analysis of the deposited data

How the results depend on the processing

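The 4 calls among cuticle protein genes were the same 4 genes, with their directions, when the p-values were adjusted over all 15282 genes with reads or over the 9453 with a mean of at least 50, and the count was 4 at adjusted p thresholds of 0.01 and 0.1. Leaving out each library in turn kept the direction of the ratio of reads in 4 of 4 called genes. This outcome was fixed in advance, because the groups of all 4 did not overlap, so it is no check of the calls. The median log2 ratio of reads over tested members, -0.10, ranged from -0.10 to -0.07 without each library in turn. The median deposited log2 fold change, -0.03, was 0.00 over all 97 genes, most of which have few reads and a change shrunken to near 0. The count of other cuticle genes called, 24, was 13 at a threshold of 0.01, between 22 and 29 under the other settings. No paired analysis was possible because the test is the authors' own and no recovered library can be matched to a replicate number. Other size factors and refits without a library need counts in the files and were not run. The 61 genes without an adjusted p had at most 33 reads each, so differences between them rest on few reads.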
